A study of Mus musculus with 12 samples.

Results

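The genes of the matrix metalloproteinases (Mmp), of the ADAMTS proteases (Adamts) and of the tissue inhibitors of metalloproteinases (Timp) were examined in RTF2-deficient MEFs (mouse embryonic fibroblasts). Members were taken by symbol, that is every row of the count table whose mouse symbol is Mmp, Timp or Adamts followed by a number, with a or b allowed after an Mmp number. This gave 46 of 24100 rows, of which 23 were Mmp, 19 Adamts and 4 Timp genes. After a filter on low counts 34 members were among the 14263 genes tested, so counts of called members below refer to those 34, and the other 12 are given by their counts.

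RNA was sequenced from 2 MEF lines, isolated from different mothers and immortalized with SV40. Each line had WT (Rtf2+/+) MEFs and RTF2-deficient (Rtf2-/lox, Null in the sample titles) MEFs, and both genotypes received Cre from the retrovirus Hit & Run pMMP Cre, with harvest 72 hrs later, so the controls were exposed to Cre too. Each of the 4 groups had 3 libraries, which the study calls technical triplicates, so p-values below measure the spread between these libraries. WT and RTF2-deficient MEFs of a line carry different germline alleles and so come from different embryos, and embryo and genotype cannot be told apart within a line. The RTF2 protein works with the machinery that copies DNA.

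MMPs are zinc endopeptidases that are made as inactive precursors and together cleave most proteins of the extracellular matrix. Some are secreted, such as the collagenases, gelatinases and stromelysins, and others are held at the cell surface, such as MMP14, which together with TIMP2 activates the MMP2 precursor. ADAMTS proteases are secreted, carry thrombospondin repeats and cleave proteoglycans, procollagens or von Willebrand factor, and TIMPs bind the active site of MMPs, with TIMP3 also inhibiting several ADAMTS enzymes. Fibroblasts are a main source of MMP2, MMP14, TIMP1 and TIMP2 in connective tissue.

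In mouse, 10 of the 23 Mmp genes lie side by side on chromosome 9 between positions 7272514 and 7699585 (GRCm38), a stretch of 427 kb that holds the collagenases and the stromelysins Mmp3 and Mmp10. Promoters of 32 members were matched in RefSeq's promoter set on GRCm38.p6. The letters TGAGTCA or TGACTCA, which are each other's reverse complement and form the binding sequence of AP-1 (dimers of Fos and Jun proteins), were searched from 250 bases before to 50 bases after each start, and TATAAA was searched on the strand of the gene. AP-1 letters were found in 7 of the 10 cluster members and in 0 of the 22 matched members outside the cluster, against 5.2% of all 32851 promoters, and TATAAA stood in 8.32% of all promoters. The 7 promoters are shown because they are the matched members with AP-1 letters. Mmp7, Mmp12 and Mmp23 each had an alternative promoter. For Mmp7 and Mmp12 the promoter with AP-1 letters is shown, and the alternative held neither set of letters. The Mmp12 alternative (chr9:7344147-7344446) lies at the start of the annotated gene, and the one shown lies inside the gene. Outside the cluster TATAAA stood in the promoters of Adamts1 and Mmp21. Each sequence is the 100 bases before the start, 5′ to 3′ on the strand of the gene, from RefSeq's GRCm38.p6, with AP-1 letters and TATAAA in capitals.
Mmp13 promoter (chr9:7272414-7272513, plus strand): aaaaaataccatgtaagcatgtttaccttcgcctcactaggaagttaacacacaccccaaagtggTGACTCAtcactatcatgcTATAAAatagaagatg
Mmp3 promoter (chr9:7445722-7445821, plus strand): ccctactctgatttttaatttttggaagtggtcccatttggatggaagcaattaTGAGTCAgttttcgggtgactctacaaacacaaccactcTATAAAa
Mmp12 promoter (chr9:7347274-7347373, plus strand): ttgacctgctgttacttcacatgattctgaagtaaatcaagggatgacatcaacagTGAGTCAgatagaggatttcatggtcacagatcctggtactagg
Mmp10 promoter (chr9:7502242-7502341, plus strand): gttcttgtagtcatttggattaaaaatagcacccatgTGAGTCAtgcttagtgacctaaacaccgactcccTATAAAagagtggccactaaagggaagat
Mmp1a promoter (chr9:7464041-7464140, plus strand): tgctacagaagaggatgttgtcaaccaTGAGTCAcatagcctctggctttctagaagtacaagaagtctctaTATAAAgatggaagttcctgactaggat
Mmp1b promoter (chr9:7388027-7388126, minus strand): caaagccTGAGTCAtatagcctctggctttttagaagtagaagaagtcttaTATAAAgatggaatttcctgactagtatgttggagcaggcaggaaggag
Mmp7 promoter (chr9:7691990-7692089, plus strand): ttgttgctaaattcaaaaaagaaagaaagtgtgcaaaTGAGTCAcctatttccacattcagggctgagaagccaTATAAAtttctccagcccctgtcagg
In 6 of these 7 windows TATAAA followed the AP-1 letters, at 19 to 45 bases from the first base of the AP-1 letters to the first base of TATAAA. The AP-1 letters began between 35 bases (Mmp13) and 93 bases (Mmp1b) before the start. A match of letters describes the sequence and is not evidence of binding.

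For contrast, the same window is shown for 4 members outside the cluster whose RNA differed between genotypes. None of these windows holds either set of letters, so they have no capitals.
Mmp11 promoter (chr10:75932503-75932602, minus strand): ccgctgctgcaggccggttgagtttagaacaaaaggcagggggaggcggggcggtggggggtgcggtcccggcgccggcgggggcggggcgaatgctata
Mmp23 promoter (chr4:155653291-155653390, minus strand): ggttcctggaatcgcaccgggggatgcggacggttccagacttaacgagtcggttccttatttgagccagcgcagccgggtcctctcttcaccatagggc
Adamts13 promoter (chr2:26973316-26973415, plus strand): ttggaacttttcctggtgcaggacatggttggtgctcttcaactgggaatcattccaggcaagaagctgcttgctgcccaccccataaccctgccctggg
Adamts18 promoter (chr8:113848840-113848939, minus strand): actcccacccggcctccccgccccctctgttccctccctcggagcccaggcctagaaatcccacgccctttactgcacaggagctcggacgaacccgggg
GC content was 37.7% to 52% in the cluster promoters and 53.3% to 80% in those of the other matched members, with a median of 52.7% over all promoters. Mmp2, Mmp9, Mmp16, Mmp17, Mmp19, Adamts4, Adamts5, Adamts6, Adamts7, Adamts8, Adamts10, Adamts15, Adamts16 and Adamts19 were not matched.

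Library totals lay between 39360167 and 44695002 counts with a median of 42066275.5, and 0 counts in the shallowest library allows up to 0.0762 CPM (counts scaled to a common library size), an upper limit of 3 counts that covers counting error only. Rtf2 lay between 44.8 and 57.8 CPM in the 6 WT libraries and between 5.44 and 6.66 CPM in the 6 RTF2-deficient libraries. Libraries of the same group differed in interferon-stimulated genes, and groups differed in sex-linked genes. A score of 18 interferon-stimulated genes, their median log2(CPM + 1), was 1.27 to 4.05 in both groups of line 1. It was 4.92 to 8.78 in WT line 2 and 2.13 to 7.32 in RTF2-deficient line 2. Over both lines all 18 genes had lower estimates in RTF2-deficient MEFs, with log2 fold changes of -3.04 to -0.56 (median -1.57). Of these genes 0 were called between genotypes by edgeR's quasi-likelihood test (1 at an unadjusted p under 0.05, 1 called by DESeq2 and 0 by limma voom). The part of this shift in the results below was not tested. WT line 2 had 91.8 to 107 CPM of the Y-linked Ddx3y and at most 0.132 CPM of Xist, whereas the other groups had at most 0.195 CPM of Ddx3y and at least 103 CPM of Xist, so sex and genotype cannot be told apart within line 2. Over both lines, Ddx3y thus reached such levels in WT alone, and the part of sex in the calls over both lines was not tested. Fibroblast markers were abundant, at a summed 19620 to 31838 CPM over 11 genes, although Dcn and Lum reached at most 2.10 and 1.65 CPM, and 0 of the 11 were called between genotypes.

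Other cell types were checked by markers, and in bulk samples fewer cells of a type and less RNA per cell cannot be told apart. Macrophage and leukocyte markers (8 genes) summed to 2.58 to 10.1 CPM in WT and 3.19 to 6.52 CPM in RTF2-deficient libraries, with Ptprc, Adgre1 and Tyrobp near 0 and 0 of 4 tested genes called between genotypes over both lines. Neutrophil and mast cell markers (6 genes) summed to at most 0.768 CPM, with 0 of 1 called. Endothelial markers (6 genes) summed to 10.7 to 15.9 CPM in WT and 14.1 to 21.5 CPM in RTF2-deficient libraries, with Kdr called higher (1 of 2 tested) and Pecam1 and Cdh5 near 0. Epithelial markers (7 genes) summed to 2.08 to 9.71 CPM in WT and 2.79 to 14.0 CPM in RTF2-deficient libraries, with Krt18 and Cldn4 called higher (2 of 5) and Epcam and Krt5 near 0. Muscle markers (6 genes) summed to 24.1 to 45.9 and 26.6 to 55.1 CPM with 1 of 4 called (Tnnt2, higher), cartilage and bone markers (7 genes) to 772 to 2354 and 936 to 2709 CPM with 0 of 5 called, and neural markers (5 genes) to 218 to 561 and 262 to 530 CPM with 1 of 3 called (Sox2, lower). Where edgeR called 0 genes, 1 fibroblast, 1 macrophage, 0 neutrophil and 2 cartilage and bone genes had an unadjusted p under 0.05, DESeq2 called 1, 0, 0 and 1 of them, and limma voom called 0. The part of these differences in the results below was not tested.

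Levels of members can be set side by side only per length, here as CPM per kb of exon. Inhibitors led the list, with Timp1 at a mean of 438 CPM per kb over the 12 libraries and Timp2 at 250. Mmp2 followed at 157 and Mmp14 at 141, and then Timp3 at 68.6, Adamts1 at 39.9, Adamts5 at 35.4, Mmp23 at 15.9, Mmp11 at 11.7 and Adamts12 at 10.6 CPM per kb. Over the libraries Timp1 ranged from 272 to 667 CPM per kb and Timp2 from 229 to 280. These ranges overlapped, although Timp1 stood above Timp2 in each library. The ranges of Mmp2 (87.4 to 237) and Mmp14 (111 to 159) overlapped too. By exon length, the order of Mmp2 and Mmp14 turned with genotype. Mmp2 averaged 209 and Mmp14 149 CPM per kb in WT line 1, and 191 and 129 in WT line 2, whereas Mmp2 averaged 128 and Mmp14 151 in RTF2-deficient line 1, and 99.3 and 135 in RTF2-deficient line 2. This turn depends on the length used, and by the longest transcript (3.08 kb for Mmp2, 3.24 kb for Mmp14) it was absent. Mmp14 then stood above Mmp2 over all libraries and in each group. Before division by length, mean CPM in WT was 889 for Mmp14 and 704 for Mmp2 in line 1, and 766 and 643 in line 2. Adamts1 (26.6 to 52.4) and Adamts5 (15.0 to 55.9) overlapped as well. The top 8 were the same 8 genes when the longest transcript was used as the length.

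**Figure D1:**
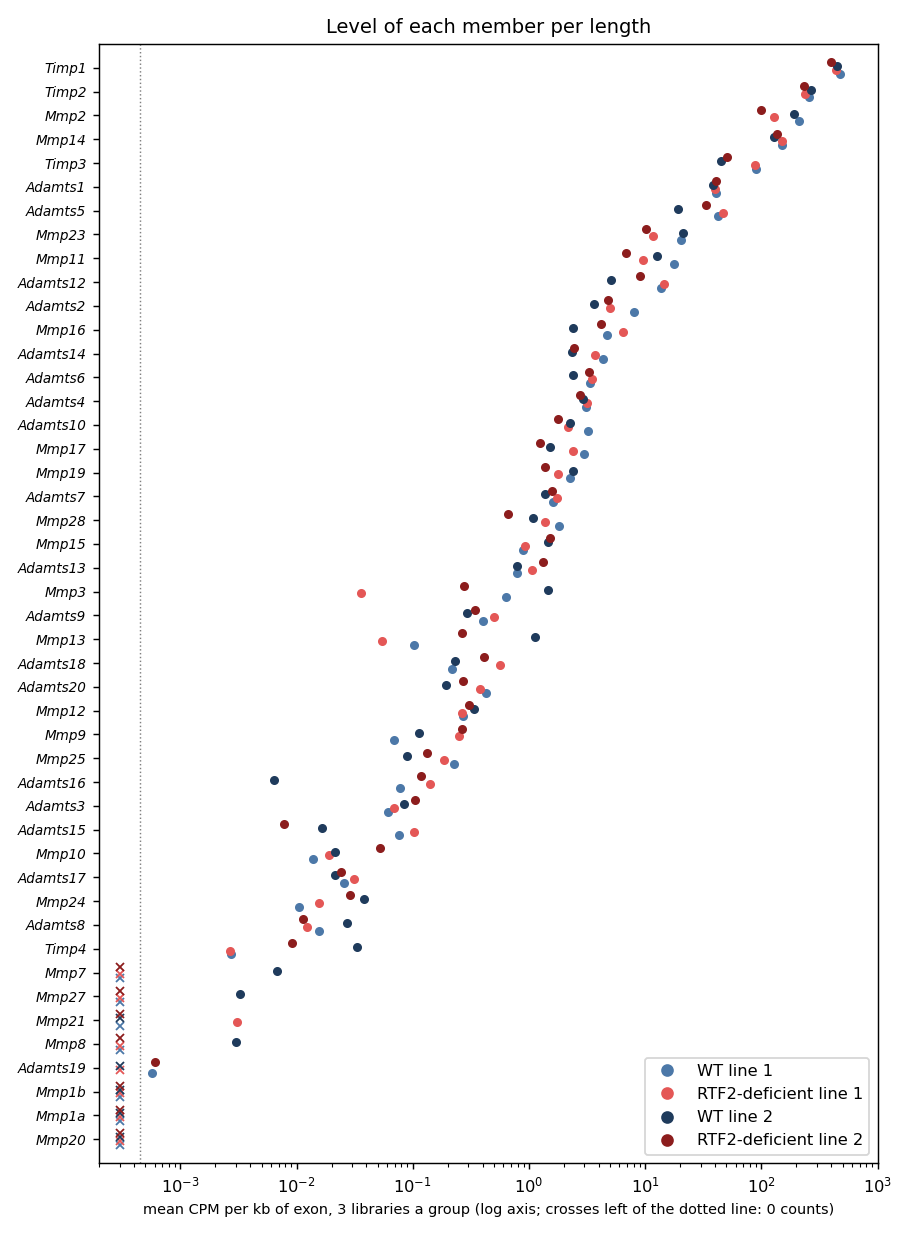
Mean level of each of the 46 members in the 4 groups, as CPM per kb of exon on a log axis, with crosses for groups with 0 counts. Timp1, Timp2, Mmp2 and Mmp14 lie at the top, Mmp1a, Mmp1b and Mmp20 have 0 counts in every library, and most members of the chromosome 9 cluster lie in the lower part.

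Summed per kb, the Timp genes made up 56.1% to 70.6% of the level of all members in a library, the Mmp genes 22.0% to 33.8% and the Adamts genes 5.45% to 12.8%. The Mmp sum was 410 ± 43.6 CPM per kb (SD, n = 3) in WT and 314 ± 33.0 in RTF2-deficient MEFs of line 1, and 365 ± 18.0 and 262 ± 26.1 in line 2. Within each line the 3 RTF2-deficient sums were below the 3 WT sums. The Timp sum was 827 ± 150 and 763 ± 151 in line 1 and 757 ± 101 and 680 ± 116 in line 2, with overlap in both lines. The ratio of the Timp sum to the Mmp sum was 2.04 ± 0.51 and 2.46 ± 0.66 in line 1 and 2.08 ± 0.35 and 2.61 ± 0.46 in line 2, which overlapped too. In line 1, where replicate numbers pair WT with RTF2-deficient libraries, the ratio was 1.84, 1.66 and 2.62 in WT and 2.23, 1.95 and 3.21 in the paired RTF2-deficient libraries, higher in 3 of 3 pairs, and the Timp sum was lower in 3 of 3 pairs. These sums are of RNA, they follow Mmp2, Mmp14, Timp1 and Timp2, and they were given no test. The shares and the ratio also depend on the length used. By the longest transcript the mean was 259 CPM per kb in place of 141 for Mmp14, and 118 in place of 68.6 for Timp3. No sums were made by that length.

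**Figure D2:**
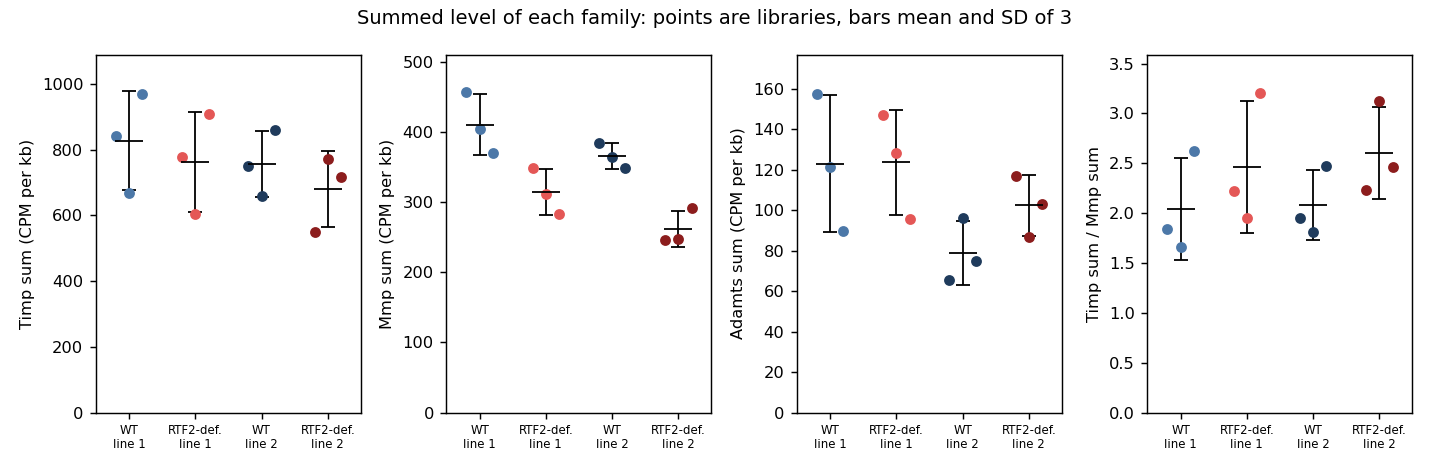
Summed CPM per kb of the Timp, Mmp and Adamts genes and the ratio of the Timp to the Mmp sum in each library, with mean and SD of 3 libraries. The Mmp sum is lower in the RTF2-deficient libraries of each line, while the ratio overlaps between genotypes in both lines, although it is higher in each of the 3 pairs of line 1.

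The main question was which members differed between RTF2-deficient and WT MEFs over both lines, tested by edgeR's quasi-likelihood test with a term for line. Of the 34 members tested, 3 were lower in RTF2-deficient MEFs (Mmp2, Mmp11 and Mmp23) and 4 were higher (Adamts18, Adamts13, Mmp16 and Mmp9) at a Benjamini-Hochberg adjusted p under 0.05. That is 8.82% and 11.8% of the members tested, beside 8.18% lower and 4.98% higher among all genes tested. The median log2 fold change was 0.03 over the members and 0.00 over all genes. By family, 3 of 14 tested Mmp genes fell and 2 rose (median -0.43), 2 of 17 Adamts genes rose and 0 fell (median 0.21), and 0 of 3 Timp genes were called (median -0.15). By DESeq2 and limma voom 1 and 0 Adamts genes were lower, and 1 and 0 Timp genes were called, and 1 Timp gene had an unadjusted p under 0.05 by edgeR. With the study's further threshold of a log2 fold change beyond 1, Adamts18 and Mmp9 remained, both higher, and 0 members were lower, beside 0.505% and 1.22% of all genes. Mmp2 and Mmp23 were lower in all 6 RTF2-deficient libraries than in all 6 WT libraries and Adamts18 was higher in all 6, that is 2 and 1 of 34 members beside 4.41% and 1.56% of all genes. These shares were given no test of their own. Those over all genes rest on single libraries too, since the count of higher genes fell from 711 to 335, 394 and 445 without replicate 2 or 1 of RTF2-deficient line 2 and without replicate 3 of WT line 2.

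All 7 calls held when each of the 12 libraries was left out in turn. When the triplicates were summed, so that only 4 samples remained, 0 of the 7 members and 0 of all genes passed at an adjusted p under 0.05, with 13 of the 34 members (38.2%) and 2737 of all genes (19.2%) at an unadjusted p under 0.05. All 7 kept their direction. Without the library with the highest interferon score in each group, an alternative chosen after seeing the data, 6 members were lower, with Adamts10, Mmp17 and Mmp19 added to the 3, and the same 4 were higher, beside 1337 lower and 819 higher of the 14223 genes tested. With the replicate number as a block over the 3 groups whose numbers pair, also chosen after seeing the data, 6 members were lower, with Adamts10, Mmp3 and Mmp17 added, and again the same 4 were higher, beside 1484 lower and 1100 higher of all genes. Calls over all genes were thus more numerous as well in both alternatives.

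**Figure D3:**
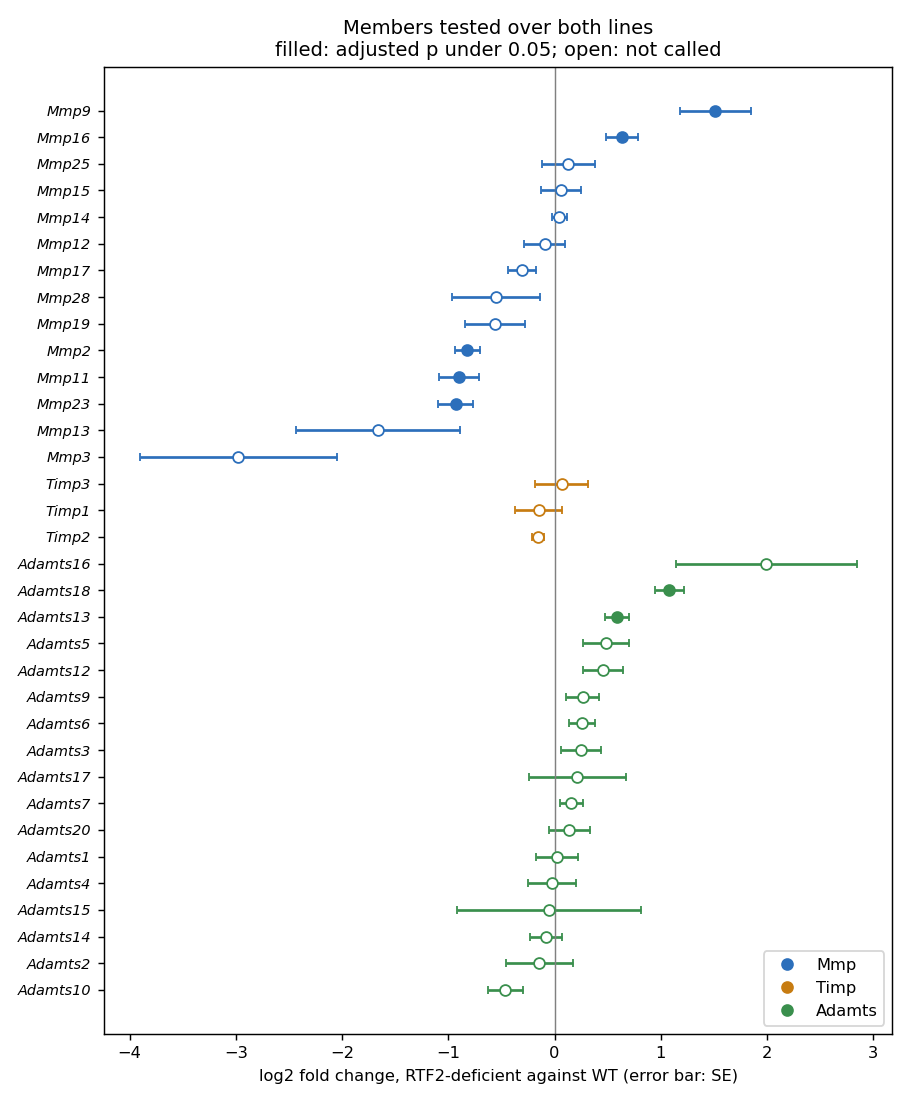
Log2 fold change of each tested member, RTF2-deficient against WT over both lines, with its SE. Filled points passed an adjusted p under 0.05, at -0.93 to -0.82 for Mmp23, Mmp11 and Mmp2 and at 0.59 to 1.51 for Adamts13, Mmp16, Adamts18 and Mmp9.

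Among the gelatinases, which digest denatured collagen and basement membrane collagen, Mmp2 fell and Mmp9 rose. In line 1 Mmp2 (gelatinase A) stood at 797, 680 and 635 CPM in WT and at 499, 421 and 378 CPM in RTF2-deficient libraries. In line 2 it stood at 749, 585 and 595 CPM in WT and at 295, 297 and 413 CPM in RTF2-deficient libraries. The highest RTF2-deficient value lay below the lowest WT value. The log2 fold change was -0.82 (SE 0.12, Benjamini-Hochberg adjusted p = 0.00073 by the quasi-likelihood test of edgeR), a 1.77-fold lower level, and a two-sided exact permutation test of the 6 against 6 libraries gave p = 0.00216, the smallest it can give. Mmp2 was called within line 2 (-0.94, SE 0.16, adjusted p = 0.0043 by edgeR). It was also called within line 1 (-0.70, SE 0.16, adjusted p = 0.0433 by edgeR), where a replicate block over all 12 libraries (adjusted p = 0.0575 by edgeR) or leaving out any 1 of 9 libraries ended the call, and the block over the 3 groups whose numbers pair kept it (adjusted p = 0.0122 by edgeR).

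Mmp9 (gelatinase B) was at the lower end of what was measured. It had 0.191, 0.272 and 0.265 CPM in WT line 1 and 0.812, 0.662 and 1.19 CPM in RTF2-deficient line 1. In WT line 2 it had 0.608, 0.243 and 0.354 CPM and in RTF2-deficient line 2 0.409, 1.05 and 1.33 CPM. These are 8 to 28 counts a library in WT and 17 to 59 counts in RTF2-deficient MEFs, and 1 RTF2-deficient library of line 2 lay below 1 WT library of that line. Over both lines the log2 fold change was 1.51 (SE 0.33, adjusted p = 0.0110 by edgeR), and the exact permutation test gave p = 0.00433. Per kb, Mmp9 averaged 0.174 CPM against 157 CPM for Mmp2.

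Among the membrane-bound MMPs, 1 of 6 tested genes fell (Mmp23) and 1 rose (Mmp16). Mmp23, which is anchored in the membrane by its amino end and lacks the hemopexin domain of most MMPs, stood at 56.7, 46.8 and 39.4 CPM in WT and at 31.9, 26.2 and 24.4 CPM in RTF2-deficient libraries of line 1. The line 2 libraries had 52.5, 53.8 and 43.2 CPM in WT and 19.9, 17.2 and 33.9 CPM in RTF2-deficient libraries. All 6 RTF2-deficient values lay below all 6 WT values, with a log2 fold change of -0.93 (SE 0.16, adjusted p = 0.0030 by edgeR), or 1.91-fold lower. The exact permutation test gave p = 0.00216.

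Mmp16, a transmembrane MMP that can activate the MMP2 precursor, stood at 37.4, 47.1 and 37.2 CPM in WT and at 54.6, 64.2 and 47.6 CPM in RTF2-deficient libraries of line 1. Line 2 gave 15.7, 23.7 and 22.5 CPM in WT and 45.4, 36.2 and 27.4 CPM in RTF2-deficient libraries. Within each line every RTF2-deficient library was above every WT library, but the lines lay apart, so the genotypes overlapped when pooled. The log2 fold change was 0.63 (SE 0.15, adjusted p = 0.0159 by edgeR with a term for line), and without that term it was 0.59 and no longer called (adjusted p = 0.211). The exact permutation test, which takes no account of line, gave p = 0.0649.

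Mmp14, the main membrane-bound collagenase of fibroblasts and the activator of the MMP2 precursor, was not called. It stood at 938, 903 and 826 CPM in WT and 946, 907 and 844 CPM in RTF2-deficient libraries of line 1. Line 2 gave 664, 863 and 772 CPM in WT and 802, 813 and 800 CPM in RTF2-deficient libraries. The groups overlapped in both lines, and the log2 fold change was 0.04 (SE 0.07, adjusted p = 0.711 by edgeR). Mmp15, Mmp17 and Mmp25, of which the last 2 are tethered by a lipid anchor, had log2 fold changes of 0.06, -0.30 and 0.13 and were not called, and Mmp24 had at most 9 counts in a library and was not tested. Both alternatives added after seeing the data called Mmp17 lower.

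Among the secreted MMPs that furin activates inside the cell, Mmp11 (stromelysin-3) fell. It stood at 64.1, 46.7 and 36.6 CPM in WT and at 36.9, 23.1 and 19.8 CPM in RTF2-deficient libraries of line 1. The line 2 libraries had 35.7, 38.2 and 32.4 CPM in WT and 16.1, 14.9 and 25.7 CPM in RTF2-deficient libraries. The genotypes overlapped only through replicate 1 of RTF2-deficient line 1. Mmp11 had a log2 fold change of -0.90 (SE 0.19, adjusted p = 0.0086 by edgeR), or 1.86-fold lower, and the exact permutation test gave p = 0.00866. Mmp11 shares 3367 bases with Chchd10 on the opposite strand, and whether counting used strand is not given in the sources used here. Chchd10 stayed between 0.317 and 1.33 CPM. Mmp28 had a log2 fold change of -0.55 (SE 0.41) and was not called, and Mmp21 had 1 count in all.

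Of the secreted MMPs of the chromosome 9 cluster, 3 of 10 were tested and 0 were called by edgeR, with 1 at an unadjusted p under 0.05 (1 called by DESeq2 and 0 by limma voom). Mmp3 (stromelysin-1) stood at 0.167, 0 and 3.26 CPM in WT line 1 and at 0.0478, 0.0736 and 0.0731 CPM in RTF2-deficient line 1. In line 2 it stood at 3.74, 0.948 and 3.16 CPM in WT and at 0.144, 0.411 and 0.927 CPM in RTF2-deficient libraries. In line 2 each RTF2-deficient value was below each WT value, whereas WT line 1 spread from 0 counts to 3.26 CPM. The log2 fold change of -2.98 had an SE of 0.93 and missed the threshold (adjusted p = 0.0533 by edgeR). Mmp3 was called lower by DESeq2 and with a replicate block.

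Mmp13 (collagenase-3) was at most 0.375 CPM in 8 of the 12 libraries, between 0.616 and 1.94 CPM in 3 others and 6.69 CPM in replicate 1 of WT line 2, the library with the highest interferon score. Its log2 fold change was -1.66 (SE 0.77) and was not called. Mmp12 (macrophage elastase) lay between 1.46 and 3.39 CPM with a log2 fold change of -0.09 (SE 0.19). The other 7 cluster genes had at most 6 counts in any library. Mmp10 reached those 6 counts, Mmp7, Mmp8 and Mmp27 had 1 count each in all, and Mmp1a, Mmp1b and Mmp20 had 0. Mmp1a and Mmp1b are related copies, and how reads that match both were counted is not given in the sources used here. The cluster genes with AP-1 letters included Mmp1a and Mmp1b with 0 counts and Mmp13 with up to 308 counts in a library. Mmp19, outside the cluster, had a log2 fold change of -0.56 (SE 0.28) and was not called. It was called lower without the library with the highest interferon score of each group.

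Among the ADAMTS genes, Adamts18 rose in both lines. Adamts18, one of the less studied ADAMTS proteases, stood at 1.93, 2.45 and 2.29 CPM in WT and at 5.16, 6.47 and 5.49 CPM in RTF2-deficient libraries of line 1. The line 2 libraries had 2.76, 2.09 and 2.27 CPM in WT and 4.11, 4.26 and 4.05 CPM in RTF2-deficient libraries. All 6 RTF2-deficient values lay above all 6 WT values, on 81 to 127 counts a library in WT and 166 to 264 counts in RTF2-deficient MEFs. The log2 fold change was 1.08 (SE 0.14, adjusted p = 0.00033 by edgeR), a 2.11-fold higher level, and the exact permutation test gave p = 0.00216. It was 1.36 (SE 0.16, adjusted p = 0.0015 by edgeR) in line 1 and 0.80 (SE 0.16, adjusted p = 0.0076 by edgeR) in line 2.

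Adamts13, the protease of von Willebrand factor, stood at 3.68, 4.58 and 3.45 CPM in WT and at 5.44, 5.67 and 4.56 CPM in RTF2-deficient libraries of line 1. In line 2 it stood at 3.67, 4.23 and 3.76 CPM in WT and at 7.12, 6.59 and 5.92 CPM in RTF2-deficient libraries. The genotypes overlapped by 1 library each in line 1 and were apart in line 2. Adamts13 had a log2 fold change of 0.59 (SE 0.11, adjusted p = 0.0054 by edgeR), or 1.5-fold higher, and the exact permutation test gave p = 0.00433. The gene of its substrate, Vwf, reached at most 0.354 CPM.

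Of the proteoglycan-cleaving ADAMTS genes 0 of 6 tested were called over both lines by edgeR (1 at an unadjusted p under 0.05, 0 by DESeq2 and 0 by limma voom). Adamts1 and Adamts5, which lie 55 kb apart on chromosome 16 and cleave aggrecan and versican, were the most abundant. Adamts1 lay between 141 and 278 CPM (median 209) in WT and between 155 and 272 CPM (median 219) in RTF2-deficient libraries, with a log2 fold change of 0.02 (SE 0.20). Adamts5 lay between 161 and 592 CPM (median 293) in WT and between 294 and 604 CPM (median 409) in RTF2-deficient libraries, with a log2 fold change of 0.49 (SE 0.21, adjusted p = 0.159 by edgeR). Both overlapped between genotypes when lines were pooled. In line 1 Adamts5 had 592, 461 and 314 CPM in WT and 604, 546 and 366 CPM in RTF2-deficient libraries, which overlapped but were higher in each pair. Within line 2 Adamts5 had 161, 272 and 183 CPM in WT and 453, 294 and 342 CPM in RTF2-deficient libraries, with no overlap. That log2 fold change of 0.82 (SE 0.28) missed the threshold (adjusted p = 0.080 by edgeR). It passed in 2 of 9 alternatives, the block over 3 groups among them (adjusted p = 0.0312 by edgeR), and in 1 of 12 fits with a library left out. Adamts4, Adamts9, Adamts15 and Adamts20 had log2 fold changes between -0.05 and 0.26, and Adamts8, 20.1 kb from Adamts15, had at most 11 counts in a library.

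Adamts12, which cleaves cartilage oligomeric matrix protein, stood at 202, 129 and 121 CPM in WT and 192, 140 and 146 CPM in RTF2-deficient libraries of line 1. Line 2 gave 66.2, 43.7 and 55.8 CPM in WT and 79.2, 100 and 116 CPM in RTF2-deficient libraries. Line 1 overlapped and line 2 did not. The log2 fold change was 0.46 (SE 0.19, adjusted p = 0.139 by edgeR) over both lines, and 0.08 (SE 0.22, adjusted p = 0.935 by edgeR) and 0.83 (SE 0.23, adjusted p = 0.0355 by edgeR) within lines 1 and 2. The difference between these effects, 0.76, did not pass (adjusted p = 0.516 by edgeR), and leaving out single libraries ended the call in line 2 in 4 of 12 cases. Over both lines Adamts12 was called in 1 of 12 alternatives and in 1 of 12 fits with a library left out. Its relative Adamts7 had a log2 fold change of 0.16. Adamts2, a procollagen N-propeptidase, had log2 fold changes of opposite sign in line 1 (-0.68, SE 0.40) and line 2 (0.39, SE 0.40), neither called. In line 1 it went from 115, 63.6 and 45.4 CPM in WT to 76.3, 34.5 and 29.2 CPM in the RTF2-deficient libraries of the same number, lower in 3 of 3 pairs. Line 2 gave 28.2, 38.0 and 36.2 CPM in WT and 34.8, 40.9 and 58.7 CPM in RTF2-deficient libraries, which overlapped. The difference between these effects did not pass (1.07, adjusted p = 0.687 by edgeR). Over both lines the procollagen N-propeptidases Adamts2, Adamts3 and Adamts14 (-0.14, 0.25 and -0.08), Adamts6 and Adamts10 of the fibrillin-linked pair (0.26 and -0.46), and Adamts16 and Adamts17 (1.99 and 0.21) were not called by the main edgeR fit. DESeq2 called Adamts10 lower and Adamts16 higher. Both edgeR alternatives added after seeing the data called Adamts10 lower too. Adamts16 had 0 to 88 counts a library, and Adamts19 had 2 counts in all.

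**Figure D4:**
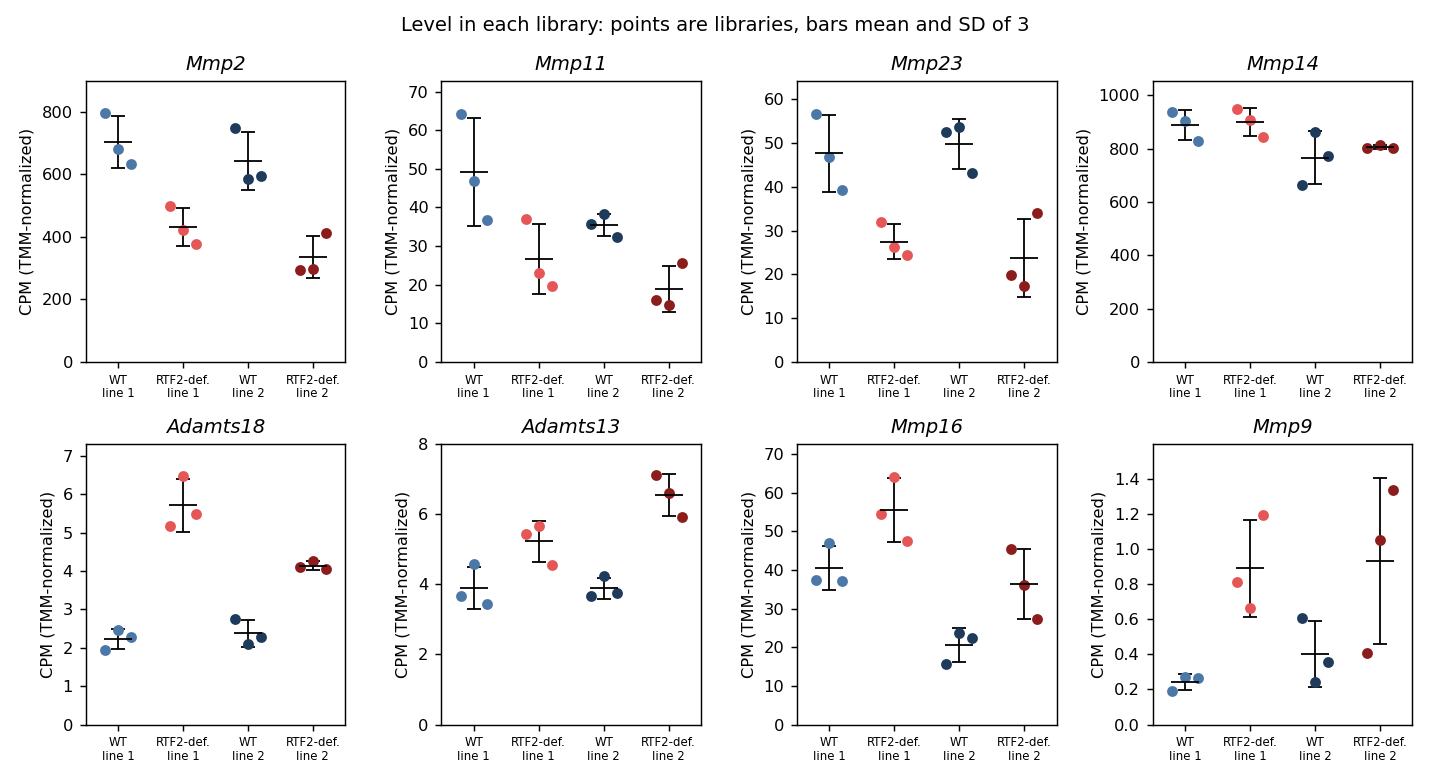
CPM in each library for the 7 members called over both lines and for Mmp14, with mean and SD of 3 libraries a group and axes starting at 0. Mmp2 and Mmp23 are lower and Adamts18 is higher in every RTF2-deficient library, Mmp16 separates within each line, and Mmp14 overlaps.

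The inhibitors were abundant and, by edgeR, 0 of the 3 tested were called. Timp2, which inhibits MMPs and takes part in MMP2 activation, lay between 926 and 1090 CPM (median 1053) in WT and between 892 and 942 CPM (median 926) in RTF2-deficient libraries, overlapping by a narrow margin. In line 1 Timp2 had 1058, 1049 and 926 CPM in WT and 936, 942 and 903 CPM in RTF2-deficient libraries, lower in each pair. In line 2 Timp2 had 967 to 1090 CPM in WT and 892 to 938 CPM in RTF2-deficient libraries, without overlap. Timp2 was not called by edgeR within either line. Over both lines the log2 fold change of Timp2, -0.16 (SE 0.06), missed the threshold (adjusted p = 0.0926 by edgeR), and the exact permutation test gave p = 0.00866. Timp2 was called lower by DESeq2 (adjusted p = 0.0187) and by limma voom with a random block for group (adjusted p = 0.0269). Timp1, a soluble inhibitor with weak action on membrane-bound MMPs, lay between 294 and 592 CPM (median 396) in WT and between 241 and 539 CPM (median 364) in RTF2-deficient libraries, with a log2 fold change of -0.15 (SE 0.22, adjusted p = 0.698 by edgeR). In line 1 Timp1 had 381, 298 and 592 CPM in WT and 364, 260 and 539 CPM in RTF2-deficient libraries, which overlapped but were lower in each pair. Timp1 lies on chromosome X, and WT line 2 differed from the other groups in its sex-linked genes. Timp4 had at most 12 counts in a library.

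Timp3, which binds to the matrix and also inhibits ADAMTS4 and ADAMTS5, stood at 1151, 526 and 530 CPM in WT and at 1029, 581 and 561 CPM in RTF2-deficient libraries of line 1. In line 2 it stood at 312, 394 and 393 CPM in WT and at 299, 322 and 603 CPM in RTF2-deficient libraries. In each of the 4 groups 2 libraries lay close together. In both groups of line 1 and in RTF2-deficient line 2 the remaining one, which had the highest interferon score of its group, lay far above them. In WT line 2 the library with the highest score lay below the other two. Over both lines the log2 fold change was 0.07 (SE 0.25, adjusted p = 0.889 by edgeR). Within line 2 it was 0.16 and not called, but -0.34 and called lower (adjusted p = 0.0122 by edgeR) without the library with the highest interferon score of each group.

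Within lines fewer members passed. In line 1, 1 member fell (Mmp2) and 1 rose (Adamts18), beside 2.52% lower and 0.68% higher of all genes tested. With the replicate number as a block over the 3 groups whose numbers pair, Mmp11 was called as well in line 1 (log2 fold change -0.89, adjusted p = 0.0469 by edgeR). Over all genes that fit called 523 lower and 175 higher in line 1, in place of 359 and 97. In line 2, 2 members fell (Mmp2 and Mmp23) and 4 rose (Adamts12, Adamts13, Adamts18 and Mmp16), beside 7.03% lower and 5.42% higher of all genes. Of the markers, 1 of 4 macrophage and leukocyte genes was lower in line 2 (Cd68, from 8.95, 5.18 and 6.05 CPM to 2.96, 2.85 and 3.82 CPM) and 1 of 3 neural genes was lower, while 1 of 5 epithelial and 1 of 4 muscle genes were higher, and their part in the line 2 calls was not tested. With the block over 3 groups, Mmp11 was also called lower in line 2 and Adamts5, Adamts6 and Adamts16 higher. Over all genes that fit called 1509 lower and 1245 higher in line 2, in place of 1003 and 773. Mmp23 had a log2 fold change of -0.79 in line 1 (SE 0.23, adjusted p = 0.108 by edgeR) and -1.07 in line 2 (SE 0.23, adjusted p = 0.0130 by edgeR), and Mmp11 of -0.89 and -0.91, neither called.

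The 7 members called over both lines had the same sign in both lines. They were chosen by the fit over the same libraries, which favours such agreement. The test of whether the effect of genotype differs between lines called 0 members, beside 1.29% of all genes. By edgeR, 2 members (5.88%) and 1211 of all genes (8.49%) passed an unadjusted p under 0.05 (3 members by DESeq2 and 2 by limma voom), and 0 were called by either of these tools. The call within line 2 of Mmp23, Mmp16 or Adamts12 was lost without 1 of some libraries of line 2, which are named in the closing section.

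**Figure D5:**
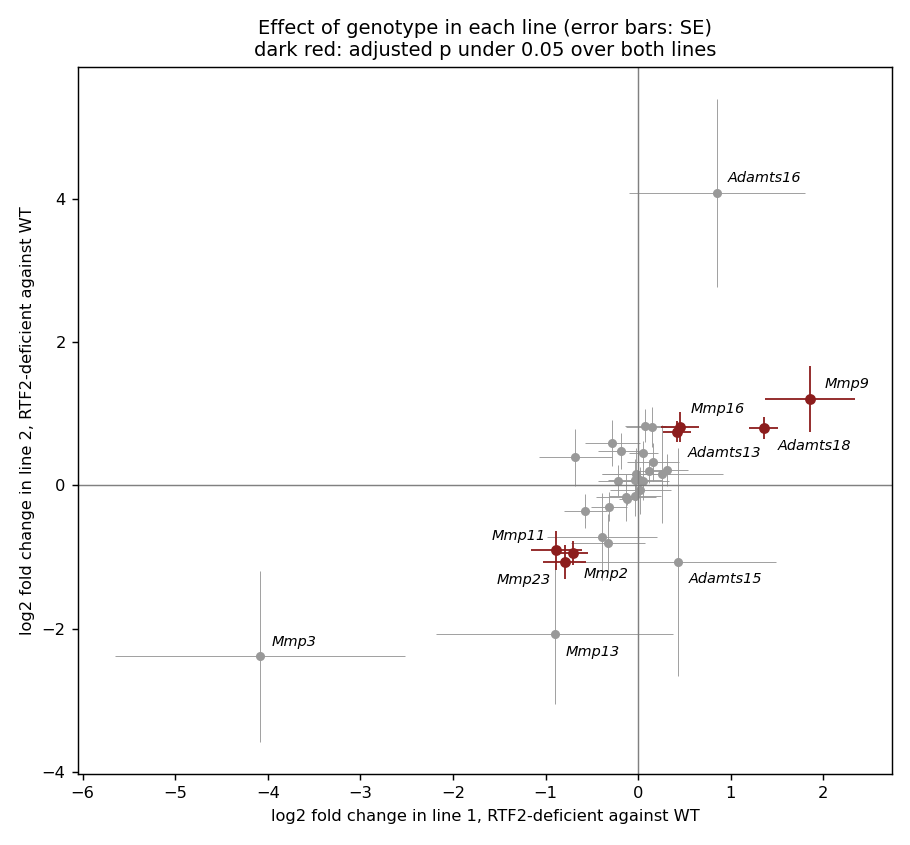
Log2 fold change of genotype in line 1 (horizontal) and line 2 (vertical) for the 34 tested members, with SE, and the 7 members called over both lines in dark red. These 7 lie at the lower left or upper right of the crossing of the 0 lines, while Mmp3, Mmp13, Adamts15 and Adamts16 have wide errors.

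The 2 lines also differed from each other without any change of genotype. WT line 2 against WT line 1 gave 7 lower members and 0 higher by edgeR's quasi-likelihood test, 20.6% and 0% of those tested, beside 7.31% lower and 6.7% higher of all genes. This comparison shares the WT line 2 libraries with that of genotype in line 2. The 7 were Adamts12 (-1.45), Mmp25 (-1.34), Adamts5 (-1.15), Adamts20 (-1.13), Mmp16 (-0.97), Mmp17 (-0.96) and Adamts14 (-0.90) on the log2 scale, so 4 of 17 tested Adamts genes and 3 of 6 tested membrane-bound Mmp genes were lower in WT line 2. Adamts12 and Mmp16 thus stood lower in WT line 2 than in WT line 1 and higher in RTF2-deficient line 2 than in WT line 2. With the replicate number as a block over the 3 groups whose numbers pair, Mmp13 (3.03, adjusted p = 0.0457 by edgeR) and Mmp15 (0.72, adjusted p = 0.044 by edgeR) were called higher in WT line 2, beside 1473 lower and 1424 higher of all genes in that fit. At an unadjusted p under 0.05, 14 members (41.2%) and 4011 of all genes (28.1%) passed. Markers moved in this comparison too, with 3 of 11 fibroblast, 2 of 5 cartilage and bone and 2 of 4 muscle markers lower, and 2 of 5 epithelial markers, 1 of 4 macrophage and leukocyte markers, 9 of 18 interferon-stimulated genes and 3 of 16 regulators of Mmp transcription higher in WT line 2. Of 3 neural markers, 1 was lower and 1 higher. The WT lines also differed in Xist and Ddx3y, so sex and line cannot be told apart here, and the part of these markers was not tested.

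Other genes of extracellular proteolysis were followed as a list of 51, of which 42 were tested. Over both lines 5 were lower and 4 were higher, 11.9% and 9.52% beside 8.18% and 4.98% of all genes, with a median log2 fold change of 0.00. The lowest adjusted p belonged to Adam8, a metalloprotease that sheds cell-surface proteins, which fell from 3.20, 3.47 and 3.43 CPM in WT line 1 to 1.10, 1.05 and 1.22 CPM in RTF2-deficient line 1. In line 2 it fell from 14.0, 9.64 and 11.4 CPM to 4.16, 5.54 and 4.20 CPM. Its log2 fold change was -1.45 (SE 0.12, adjusted p = 1.9e-05 by edgeR). The ADAMTS-like Adamtsl4, a binding partner of fibrillin without protease activity, fell by 1.19 on the log2 scale, Papln (papilin) by 1.27, Plat (tissue plasminogen activator) by 0.65 and Pcolce by 0.45.

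Bmp1, the procollagen C-proteinase, rose and its enhancer Pcolce fell. Bmp1 stood at 229, 254 and 220 CPM in WT line 1 and 299, 343 and 315 CPM in RTF2-deficient line 1. Line 2 gave 123, 139 and 130 CPM in WT and 256, 256 and 264 CPM in RTF2-deficient libraries. All 6 RTF2-deficient values lay above all 6 WT values, with a log2 fold change of 0.72 (SE 0.10, adjusted p = 0.0005 by edgeR). Its relative Tll1 (0.59), the secreted serine protease Htra1 (0.51) and Adam15 (0.16) were also called higher. Of 12 tested substrates of these proteases, 0 were called over both lines by edgeR (2 at an unadjusted p under 0.05, 1 by DESeq2 and 0 by limma voom, median log2 fold change 0.14), and Vcan (versican) had 0.43 (adjusted p = 0.105 by edgeR). Of 16 regulators of Mmp transcription, 0 were called over both lines by edgeR (6 at an unadjusted p under 0.05, 3 by DESeq2 and 0 by limma voom, median -0.03), and within line 2 the AP-1 genes Fosl2 (-0.45) and Jun (-0.42) were lower, with no call in line 1. DESeq2 called 6 of the other proteolysis genes lower and 10 higher, beside 1405 lower and 1297 higher of all genes.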

How the data were processed

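Counts of sequencing reads for 12 MEF libraries were examined. The authors deposited raw, unscaled whole numbers, 1 count per gene and library, under Entrez identifiers. According to the study's methods the reads were quantified by Salmon against mm10 transcripts and summed by tximport, whereas the submitters' notes on processing list HTSeq, and which of these made the table is not settled. Whether counting used strand is not given in the sources used here.

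Columns were matched to samples by their titles, and 0 columns were left out. Symbols came from RefSeq for 24045 of 24100 identifiers. Low genes were removed by filterByExpr with the 4 groups, library sizes were adjusted by TMM, and the quasi-likelihood test was run in edgeR 4.0.16 (limma 3.58.1, DESeq2 1.42.0, R 4.3.3). The fit over both lines had line and genotype as terms. A layout of the 4 groups gave the contrasts within lines, their interaction and WT line 2 against WT line 1. Adjusted p-values are Benjamini-Hochberg values over all 14263 genes, called under 0.05. CPM values are TMM-normalized, and CPM per kb divides by the exon union of GENCODE M21. The exact permutation test used the difference in mean log2 CPM with a pseudocount of 0.5 CPM. The edgeR fits were also run on simulated counts drawn independently for each library. Those counts held no pairing of libraries and no effect of embryo, so they cannot show how the fits behave with either.

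No pair of triplicates differed by as little as sampling noise (chi-square per degree of freedom 17.0 to 148), so all were kept. Deviations of same-numbered libraries from their group means correlated at 0.43 to 0.625 between both groups of line 1, 0.305 to 0.426 between the WT lines and 0.287 to 0.309 between RTF2-deficient line 1 and WT line 2, so these numbers pair. Those of RTF2-deficient line 2 correlated at -0.587 to 0.17 with the others and were taken as not paired.

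Described in full were members called in a comparison of genotypes and the 8 with the highest mean CPM. Of other lists, up to 8 genes with the smallest adjusted p were eligible for naming, and marker genes near 0, Cd68, Vwf, Chchd10, Fosl2 and Jun were named after their values were seen. Members and lists (other proteolysis genes, substrates, regulators of Mmp transcription, interferon-stimulated genes and markers) were chosen with earlier results of these data known. As alternatives, normalization was by RLE or upper quartile; the fits were repeated with other filters, DESeq2, limma voom, a replicate block, no term for line, summed triplicates, a random block for group, and each library left out. A block over 3 groups and leaving out the library with the highest interferon score of each group were added after seeing the data.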

Additional observations from a re-analysis of the deposited data

Results flagged for a closer look

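In 1 of 28 sets of 6 libraries (14 members in each genotype) 1 library lay far from the others. Timp3 stood at 1151 CPM in replicate 1 of WT line 1, with the nearest WT library at 529.9 CPM and a gap of 0.741 of the range, which passes Dixon's 95% critical value for 6 samples. Chance gives about 5% of sets, and whether 1 in 28 differs from that was not tested. The same library had the highest interferon score of its group (4.05), and the part of this in the Timp3 value was not tested.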

How the results depend on the processing

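The 7 members called over both lines kept their direction under every alternative that tested them. All 7 kept their call under RLE and upper-quartile normalization, no filter, DESeq2, limma voom, both replicate blocks and the random block for group. Mmp16 lost it without the term for line, and Mmp9 was not tested with 1 CPM required in 6 libraries, which left 1 member higher beyond a log2 fold change of 1 in place of 2. Summed triplicates gave 0 lower, 0 higher and 0 beyond a log2 fold change of 1, and called 0 of all genes. Both WT and RTF2-deficient groups rest on 2 lines, so these calls describe 2 embryo pairs, and members under 1 CPM rest on few counts.

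DESeq2 called 6 members lower over both lines in place of 3 (1 beyond a log2 fold change of 1), 3 lower and 2 higher in line 1 in place of 1 and 1, 7 higher in line 2 in place of 4, and 1 higher in WT line 2 in place of 0, as did no filter (1). The random block for group gave 5 lower over both lines. Without the library with the highest interferon score of each group, 6 were lower over both lines (2 of them by more than 1 on the log2 scale), with 5 lower members in line 1, 7 in line 2, and Adamts5 lost between the WT lines, and Timp3 in line 2 turned to -0.34. Over all genes, DESeq2 called 1297 higher over both lines in place of 711, 598 lower and 254 higher in line 1 in place of 359 and 97, 1225 higher in line 2 in place of 773, and 169 lower and 240 higher for the interaction in place of 76 and 108. No term for line gave 345 higher over both lines, and the random block gave 1911 lower in place of 1167 and 1546 higher. Without the libraries with the highest interferon score, 33 members were tested. Over all genes, 370 were then lower in line 1, 1727 lower and 1258 higher in line 2, and 160 lower for the interaction. The cause of these differences was not tested.

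The replicate block over all 12 libraries gave 0 lower members in line 1 in place of 1 and 1 lower beyond a log2 fold change of 1 (Mmp3) in place of 0. The block over the 3 groups whose numbers pair gave 6 lower over both lines (1 beyond a log2 fold change of 1), 2 lower in line 1, 7 higher in line 2 and 2 higher in WT line 2. It ended no call. Over all genes it gave 1100 higher over both lines, and 523 lower and 175 higher in line 1 in place of 359 and 97. In line 2 it gave 1509 lower and 1245 higher in place of 1003 and 773. For the interaction it gave 119 lower and 187 higher in place of 76 and 108.

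With single libraries left out, the count of lower members ranged from 3 to 5 over both lines (0 to 3 beyond a log2 fold change of 1), from 0 to 2 in line 1 and from 1 to 4 in line 2, and that of higher members from 1 to 2 in line 1, from 2 to 5 in line 2 and from 0 to 2 in WT line 2. Without replicate 3 of RTF2-deficient line 2, 5 were lower over both lines. The line 2 call of Mmp23 was lost without replicate 1 or 2 of RTF2-deficient line 2, that of Mmp16 without replicate 1 or 3 of WT line 2 or replicate 1 or 2 of RTF2-deficient line 2, and that of Adamts12 without replicate 2 or 3 of either group of line 2. Between the WT lines, Adamts5 was lost in 4 cases, Adamts14 in 3 and Mmp25 in 2. Over all genes, leaving out replicate 2 of RTF2-deficient line 2 gave the fewest higher genes over both lines (335), the fewest lower (451) and higher (362) in line 2 and the fewest for the interaction (32 lower and 34 higher). In line 2, 515 and 432 were left without replicate 1 of that group and 663 lower without replicate 3 of WT line 2. In line 1, leaving out any library of that line left 159 to 239 lower and 33 to 53 higher genes. Higher genes in WT line 2 fell from 955 to 522 without replicate 2 of WT line 1 and to 588 without replicate 1 of WT line 2.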
